A study of Mus musculus with 6 samples.

Results

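The NF-κB transcription factors and the inhibitors that their own activity induces were followed in cultured mouse kidney tubule cells with and without deletion of Elf3, the gene of an epithelial ETS transcription factor. The set held 10 genes of 55487 in the deposited tables, matched by symbol, and all 10 passed the filter on low counts. It comprised the subunit genes Nfkb1, Nfkb2, Rel, Rela and Relb, the genes of the cytoplasmic inhibitors Nfkbia and Nfkbie, the gene of the ubiquitin-editing enzyme Tnfaip3, and the nuclear inhibitor family genes Nfkbiz and Bcl3.

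Bulk RNA sequencing was done on 6 libraries of primary renal tubular epithelial cells. In 3 libraries, labelled ELF3 knockout, the cells had been infected with an adenovirus that expresses Cre recombinase. In the other 3, labelled wild type, they had been infected with a control adenovirus. Effects of Cre itself therefore cannot be told apart from effects of Elf3 loss. All 6 were labelled as treated with TNFα + IFNγ and as batch 1, and unstimulated cultures were not analysed here, so levels before the cytokines are not known. The strain, age and sex of the mice, the cytokine doses and times, the targeted Elf3 allele and whether replicates were separate cultures are not stated in the labels. P-values therefore measure the spread between these libraries, which may be technical. Cre was delivered by virus to a whole culture, and Elf3 transcripts were still counted in the knockout. Elf3 had 38, 32 and 21 counts in the 3 knockout libraries, against 201, 250 and 206 in the controls, with no overlap (edgeR log2 fold change -2.84, adjusted p = 6.84e-14).

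NF-κB acts as dimers of Rel family proteins. In resting cells IκB proteins hold these dimers in the cytoplasm. TNFα signals through its receptor to the IκB kinase, which marks IκB for destruction and frees dimers such as p50 with RelA to enter the nucleus. Several genes that NF-κB switches on encode its own subunits and inhibitors, and this negative feedback limits the response. In tubular cells the pathway is known for driving chemokine and adhesion molecule genes during kidney inflammation.

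Total estimated counts per library lay between 8961779 and 10774195, so that 3 counts corresponded to 0.278 to 0.335 CPM (counts scaled to library size). All 8 markers of tubular epithelium examined, among them Epcam and Pax8, were measured, with a summed 6310 to 6500 TPM (abundance per transcript length) in the knockout and 4570 to 4690 in the controls. Of these 8, 5 were called higher and 3 lower, and their part in the results below was not tested. The leukocyte markers Cd3e, Ms4a1 and S100a8 were at 0 in every library, and the leukocyte list summed to 24.8 to 43.9 TPM in the knockout and 31.2 to 34.5 in the controls. Endothelial markers summed to 2.27 to 2.99 TPM in the knockout and 0.52 to 0.8 in the controls, with Tie1 at 0. This difference was carried by Kdr, at 2.01, 2.32 and 2.8 TPM in the knockout and 0.27, 0.48 and 0.51 TPM in the controls, and the other endothelial markers had 0 to 3 counts in each library and were not tested. Fibroblast markers summed to 25.7 to 32.4 TPM in the knockout and 24 to 25.7 TPM in the controls, with Lum at 0. Col1a1 was detected at 59.3 ± 3.62 CPM in the knockout and 51.6 ± 2.71 in the controls. By edgeR, Pdgfra (1.78-fold) and Col1a1 (1.15-fold) were called higher, Col1a2 (1.24-fold) was called lower and Pdgfrb was not called. DESeq2 called 1 fibroblast marker higher and 0 lower. In bulk RNA, fewer cells of a type and less RNA per cell cannot be told apart.

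The set of RefSeq promoters used gave windows on GRCm38.p6, from 250 bases before to 50 bases after the start site, for 7 of the 10 genes. The set used held no window for Nfkb1, Relb and Nfkbiz. These genes, which all passed in the comparison below, were therefore not searched. A match to the κB consensus, the decamer family that NF-κB dimers bind, was present on at least 1 strand for 6 of these 7 genes, against 5.14% of 27025 genes with a window. Rela was the exception. The set was chosen as NF-κB genes and inhibitors that NF-κB activity induces, so this share is not independent of the choice and is no finding about it. The windows are shown because the match is what 6 of the genes share. Each sequence below is the 150 bases before the start site, 5′ to 3′ in the direction of the gene, with every base of a κB match in capitals.

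Nfkb2, chr19:46304587-46304736, plus strand: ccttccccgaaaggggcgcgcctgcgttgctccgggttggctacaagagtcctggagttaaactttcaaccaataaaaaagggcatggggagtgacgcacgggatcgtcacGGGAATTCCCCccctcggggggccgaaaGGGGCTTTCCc
Rel, chr11:23770970-23771119, minus strand: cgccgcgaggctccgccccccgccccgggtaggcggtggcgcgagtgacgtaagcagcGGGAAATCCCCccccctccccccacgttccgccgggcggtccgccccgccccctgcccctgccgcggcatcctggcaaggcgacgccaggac
Nfkbia, chr12:55492648-55492797, minus strand: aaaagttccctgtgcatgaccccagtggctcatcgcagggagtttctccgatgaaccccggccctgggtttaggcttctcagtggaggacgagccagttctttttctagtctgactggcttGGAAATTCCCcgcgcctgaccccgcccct
Nfkbie, chr17:45555550-45555699, plus strand: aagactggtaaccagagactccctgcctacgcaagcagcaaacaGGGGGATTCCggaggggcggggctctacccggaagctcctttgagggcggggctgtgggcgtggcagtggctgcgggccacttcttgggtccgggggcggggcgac
Tnfaip3, chr10:19015411-19015560, minus strand: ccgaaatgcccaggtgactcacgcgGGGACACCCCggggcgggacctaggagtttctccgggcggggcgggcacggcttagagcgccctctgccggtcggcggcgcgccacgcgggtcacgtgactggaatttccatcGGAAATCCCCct
Rela, chr19:5637391-5637540, plus strand: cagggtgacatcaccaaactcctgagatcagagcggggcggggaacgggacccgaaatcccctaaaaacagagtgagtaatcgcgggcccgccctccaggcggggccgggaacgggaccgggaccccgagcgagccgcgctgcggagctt

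Nfkb2 carried 2 separate stretches in this window, beginning 39 and 11 bases before the start site, and further matches in its 2 other listed windows. Those 2 windows overlap, and the same gggactttcc match was counted in both. The first stretch holds overlapping matches on both strands. Tnfaip3 also carried 2 stretches in the window shown, beginning 125 and 12 bases before the start site. Its other listed window, at chr10:19011914-19012213, held 0 matches and is not shown. Rel, Nfkbia and Nfkbie carried 1 each, beginning 92, 29 and 106 bases before it. The match of Bcl3 began 2 bases after its start site and is therefore not in a sequence above. For the ETS family, to which ELF3 belongs, the letters CCGGAAG and CAGGAAG were searched on both strands. Of the 7 genes only Nfkbie held either, a CCGGAAG beginning 78 bases before the start site. Nfkb1, Relb and Nfkbiz, without a window, are not covered by this search. Of all genes with a window 23.1% held at least 1 of these letter strings. A match describes letters and not binding.

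Of the 10 genes, 3 were lower and 1 was higher in the knockout (edgeR's quasi-likelihood test, Benjamini-Hochberg threshold 0.05 over 13755 genes). Nfkb1 and Nfkbiz showed the largest differences of the 10, falling 1.33-fold and 1.48-fold, and Rela fell 1.18-fold. Relb rose 1.15-fold and stood close to the threshold. The remaining 6, Nfkb2, Rel, Nfkbia, Nfkbie, Tnfaip3 and Bcl3, did not pass. Of all tested genes 36.6% passed, 18.3% higher and 18.3% lower, so 4 of 10 is near the background and is no result about the set. The median log2 fold change was -0.10 over the 10 genes and -0.01 over all tested genes, and the median size without regard to sign was 0.15 and 0.20.

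**Figure D1:**
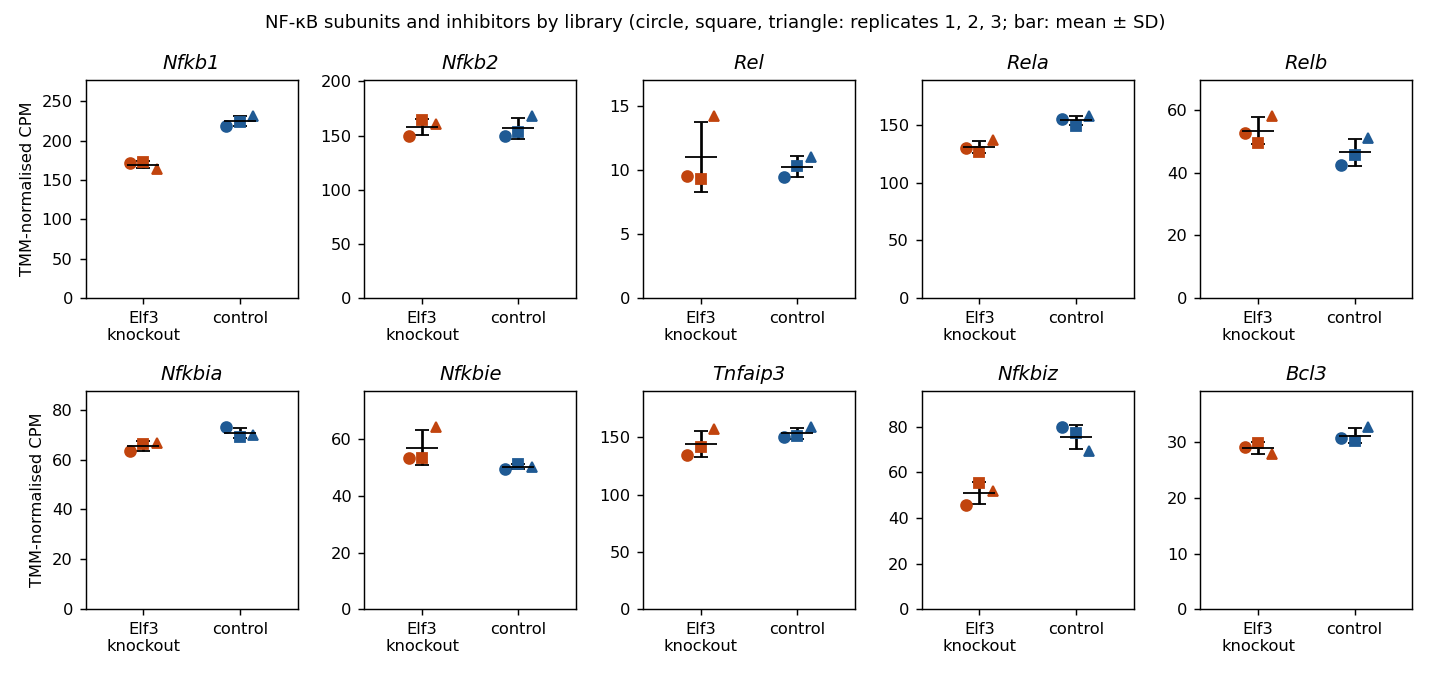
TMM-normalised CPM of each gene in the 3 knockout libraries (left) and the 3 control libraries (right) of each panel, with mean and SD. Nfkb1, Rela and Nfkbiz lie lower in all 3 knockout libraries than in any control, as do Nfkbia and Bcl3, which were not called. Nfkbie lies higher in all 3 without being called, and Nfkb2, Rel, Tnfaip3 and the called Relb overlap.

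Nfkb1 (ENSMUSG00000028163, mm10 chromosome 3, 135584655 to 135691547, minus strand) encodes p105, the precursor of the p50 subunit, which also restrains other subunits through its ankyrin repeats. It stood at 172, 173 and 164 CPM in the 3 knockout libraries, against 219, 224 and 231 CPM in the controls. All 3 knockout values lay below the lowest control. The means were 169.6 ± 4.81 CPM in the knockout and 225 ± 6.16 CPM in the controls (SD, n = 3 each). This gave a log2 fold change of -0.41 with a standard error of 0.05 (edgeR adjusted p = 1.2e-07). Its absolute size exceeded that of 74.9% of tested genes.

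Rela (ENSMUSG00000024927, chromosome 19, 5637483 to 5648130, plus strand) encodes p65, the main transactivating partner of p50. It had 129.8, 126 and 137 CPM in the knockout libraries, against 155, 149.5 and 158 CPM in the controls, again without overlap. On counts the log2 fold change was -0.23 ± 0.06 (SE, edgeR adjusted p = 0.00106). The deposited TPM differed from the counts for this gene. Rela had 109, 114 and 128 TPM in the knockout and 118, 121 and 126 TPM in the controls, so that the groups overlapped, and limma on log2(TPM + 1) gave a log2 fold change of -0.07 (adjusted p = 0.574). The TPM obtained per CPM was 0.837, 0.905 and 0.933 for Rela in the knockout and 0.764, 0.811 and 0.801 in the controls. This conversion was higher in every knockout library than in any control. Relb was the one other member for which the conversion did not overlap between groups, at 0.821 to 0.842 in the knockout and 0.844 to 0.874 in the controls. The fall of Rela thus holds in the count table and was not detected in the TPM table.

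Relb (ENSMUSG00000002983, chromosome 7, 19606217 to 19629438, minus strand) encodes the partner of p52 in the alternative pathway. It had 52.7, 49.6 and 58.0 CPM in the knockout and 42.6, 45.7 and 51.1 CPM in the controls. The highest control lay above the lowest knockout library, so the groups overlapped. Its log2 fold change of 0.20 ± 0.08 (SE) gave an edgeR adjusted p of 0.047. Without knockout replicate 3 or control replicate 1 the adjusted p was 0.237, without control replicate 2 it was 0.118, and DESeq2 gave 0.0941.

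Nfkb2 (ENSMUSG00000025225, chromosome 19, 46304320 to 46312385, plus strand) encodes p100, the precursor of p52 and an inhibitor in its own right. It had 149.9, 164 and 161 CPM in the knockout and 149.6, 153 and 168 CPM in the controls. These ranges overlap. Its log2 fold change was 0.01, with a 95% interval of -0.10 to 0.13 from the edgeR fit (adjusted p = 0.872). Psd, a gene of the other strand, shares exonic bases with Nfkb2, and the strand setting of the counting is not stated, so their reads may not be separable. Psd itself averaged 7.75 CPM in the knockout and 9.43 CPM in the controls.

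Rel (ENSMUSG00000020275, chromosome 11, 23736847 to 23770970, minus strand) encodes c-Rel, a subunit best known from lymphocytes and macrophages. It had 85, 99 and 147 counts in the knockout and 100, 106 and 100 in the controls, the smallest counts of the 10 genes. Knockout replicate 3 stood apart, with an exact 95% Poisson interval of 124 to 173 counts that lies above the interval of knockout replicate 2 (80.5 to 121). In CPM the knockout values were 9.54, 9.31 and 14.2 and the control values 9.42, 10.3 and 11.04. The log2 fold change was 0.11, with an edgeR interval of -0.22 to 0.44 (adjusted p = 0.639), and it was -0.12 without knockout replicate 3. Leukocyte markers summed to 34.4, 37.9 and 41.5 CPM in the knockout libraries and to 40.6, 43 and 46.9 CPM in the controls. Their part in the Rel values was not tested.

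The 3 genes of cytoplasmic inhibitors did not pass by edgeR, limma-voom or DESeq2, and 1 of them, Nfkbie, had an unadjusted edgeR p under 0.05. Nfkbia (ENSMUSG00000021025, chromosome 12, 55489410 to 55492647, minus strand) encodes IκBα, the fast inhibitor that is resynthesised after each burst of NF-κB activity. It had 63.3, 66.2 and 66.7 CPM in the knockout and 72.8, 69.1 and 69.9 CPM in the controls. Although each knockout value lay below each control, the log2 fold change was only -0.11 (edgeR interval -0.24 to 0.02, adjusted p = 0.198). Over all tested genes the CPM of the groups did not overlap for 46.7%, with 23.0% higher and 23.6% lower in the knockout.

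Nfkbie (ENSMUSG00000023947, chromosome 17, 45555703 to 45563169, plus strand) encodes IκBε, a slower inhibitor of the same type. It had 53.4, 53.5 and 64.2 CPM in the knockout and 49.6, 51.2 and 50.3 CPM in the controls. The groups did not overlap, but knockout replicate 3 carried much of the difference. The edgeR log2 fold change was 0.18 (edgeR interval 0.02 to 0.34, adjusted p = 0.0664). Without knockout replicate 3 the fold change was 0.09 (adjusted p = 0.437), whereas without knockout replicate 1 or 2 it was 0.23 and passed (adjusted p = 0.0254 and 0.0344).

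Tnfaip3 (ENSMUSG00000019850, chromosome 10, 19000910 to 19015657, minus strand) encodes A20, which removes and adds ubiquitin chains on signalling proteins upstream of the IκB kinase. It had 135, 142 and 157 CPM in the knockout and 150.3, 151 and 159 CPM in the controls. The groups overlapped through knockout replicate 3. With a log2 fold change of -0.09 it did not pass (edgeR interval -0.20 to 0.03, adjusted p = 0.264).

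Nfkbiz (ENSMUSG00000035356, chromosome 16, 55811375 to 55838899, minus strand) encodes IκBζ, a nuclear protein that binds p50 dimers and is needed for a class of delayed inflammatory genes in macrophages and keratinocytes. It had 45.7, 55.5 and 51.8 CPM in the knockout, against 79.7, 77.4 and 69.6 CPM in the controls. The highest knockout library stayed well below the lowest control. The log2 fold change reached -0.57 with a standard error of 0.08 (edgeR adjusted p = 4e-07). Its absolute size exceeded that of 83.3% of tested genes. In TPM the gene averaged 25.6 ± 2.96 in the knockout and 37.9 ± 3.01 in the controls (SD, n = 3 each).

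Bcl3 (ENSMUSG00000053175, chromosome 7, 19808462 to 19822770, minus strand) encodes the other nuclear IκB of the set, which binds p50 and p52 homodimers. It had 29.1, 29.8 and 27.8 CPM in the knockout and 30.7, 30.1 and 32.6 CPM in the controls. The groups were separate by a narrow margin. The log2 fold change of -0.11 did not pass (edgeR interval -0.29 to 0.08, adjusted p = 0.38). An annotated antisense transcript that overlaps its exons, Gm16175, had 0 counts in all 6 libraries. Two-sided exact permutation tests of log2(CPM + 1) gave p = 0.1, the smallest that 3 against 3 libraries allow, for Nfkb1, Rela, Nfkbia, Nfkbie, Nfkbiz and Bcl3. These are the genes whose groups did not overlap in CPM. The same held for 46.7% of all tested genes, so it is no result about the set. The permutation tests gave p = 0.2 for Relb, 0.3 for Tnfaip3 and 0.9 for Nfkb2 and Rel.

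**Figure D2:**
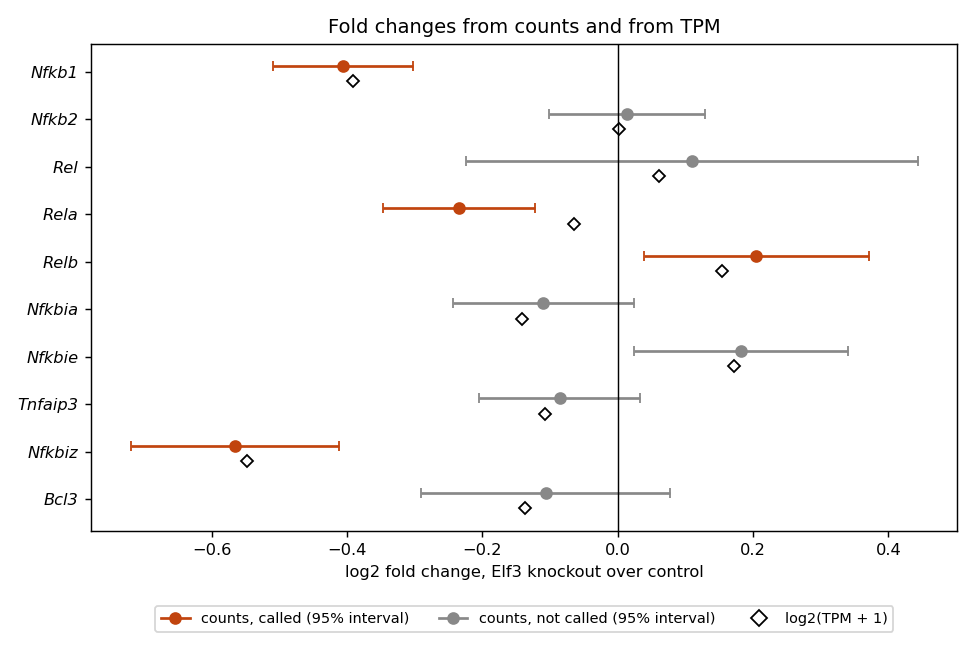
Log2 fold change of knockout over control for each gene, from the edgeR fit of the counts (filled circles with 95% intervals) and from limma on log2(TPM + 1) (open diamonds). The TPM value of Rela, -0.07, lies outside the interval from the counts, -0.35 to -0.12, while those of Nfkb1 and Nfkbiz lie inside.

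Levels were compared between genes on the TPM scale, which is per length. In the knockout Rela came highest at 117 ± 9.73 TPM, above Nfkb2 at 92.6 ± 6.50 and Nfkb1 at 91.2 ± 2.85 (SD, n = 3 each), and the ranges of the last pair overlapped. In the controls Rela and Nfkb1 headed the order together at 122 ± 3.97 and 119.9 ± 3.27 TPM, with overlapping ranges. Nfkb2 and Nfkbia followed in the controls at 92.5 ± 5.88 and 91.3 ± 2.94 TPM, also overlapping.

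Nfkbia came next in the knockout at 82.7 ± 4.19 TPM, separate from its neighbours in the order. Tnfaip3 was the fifth gene in both groups, at 66.2 ± 7.41 TPM in the knockout and 71.3 ± 5.48 in the controls. Relb and Nfkbie came next in both groups and overlapped each other, at 44.6 ± 3.79 and 43.2 ± 5.58 TPM in the knockout and at 40.0 ± 3.18 and 38.0 ± 0.88 TPM in the controls. Nfkbiz changed place. It lay below Bcl3 without overlap in the knockout, where Bcl3 had 31.3 ± 1.83 TPM, and just above Bcl3 with overlap in the controls, where Bcl3 had 34.5 ± 1.23 TPM. Rel was by far the lowest at 2.53 ± 0.67 TPM in the knockout and 2.35 ± 0.19 in the controls.

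The mix of subunit transcripts was described as each gene's share of the summed subunit TPM in a library. Nfkb1 made up 28.0%, 25.6% and 25.1% in the knockout libraries and 32.4%, 31.8% and 31.3% in the controls. Relb made up 13.0%, 12.2% and 13.3% in the knockout and 10.1%, 10.7% and 10.9% in the controls. Rela accounted for 32.7% to 34.6% in the knockout and 31.99% to 32.6% in the controls, and Nfkb2 for 25.6% to 28.2% in the knockout and 24.2% to 25.1% in the controls. Shares are tied to each other, since they add up to the whole, so a lower share of Nfkb1 raises the rest. In CPM, a scale added after seeing the data and not per length, the Rela share overlapped between groups, at 25.3%, 24.2% and 25.6% in the knockout and 26.9%, 25.7% and 25.5% in the controls. The shares of Nfkb1, Nfkb2 and Relb stayed separate in CPM in the direction seen in TPM. The summed TPM of the 5 subunits overlapped between groups, at 332, 343 and 368 in the knockout and 363, 372 and 395 in the controls. Their summed CPM did not overlap, at 514, 522 and 534 in the knockout and 576, 583 and 619 in the controls. The summed TPM of Nfkbia, Nfkbie and Tnfaip3 overlapped too, at 180.0 to 210.2 in the knockout and 194 to 205 in the controls. That of Nfkbiz and Bcl3 did not, at 52.1 to 61.6 in the knockout and 69.7 to 73.8 in the controls. In CPM these last sums likewise overlapped for Nfkbia, Nfkbie and Tnfaip3 and were separate for Nfkbiz and Bcl3.

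Ratios within a library, for pairs chosen after their values were seen and so given with no test, do not depend on the scaling of the library. Nfkb1 to Nfkb2 was 1.09, 0.908 and 0.965 in the knockout, against 1.34, 1.31 and 1.25 in the controls. Nfkb1 to Rela was 0.856, 0.770 and 0.726 in the knockout and 0.993, 0.977 and 0.979 in the controls. Among the inhibitors, Nfkbiz to Nfkbia was 0.288, 0.336 and 0.304 in the knockout and 0.438, 0.439 and 0.368 in the controls. None of these ratios overlapped between groups, in TPM or in CPM.

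**Figure D3:**
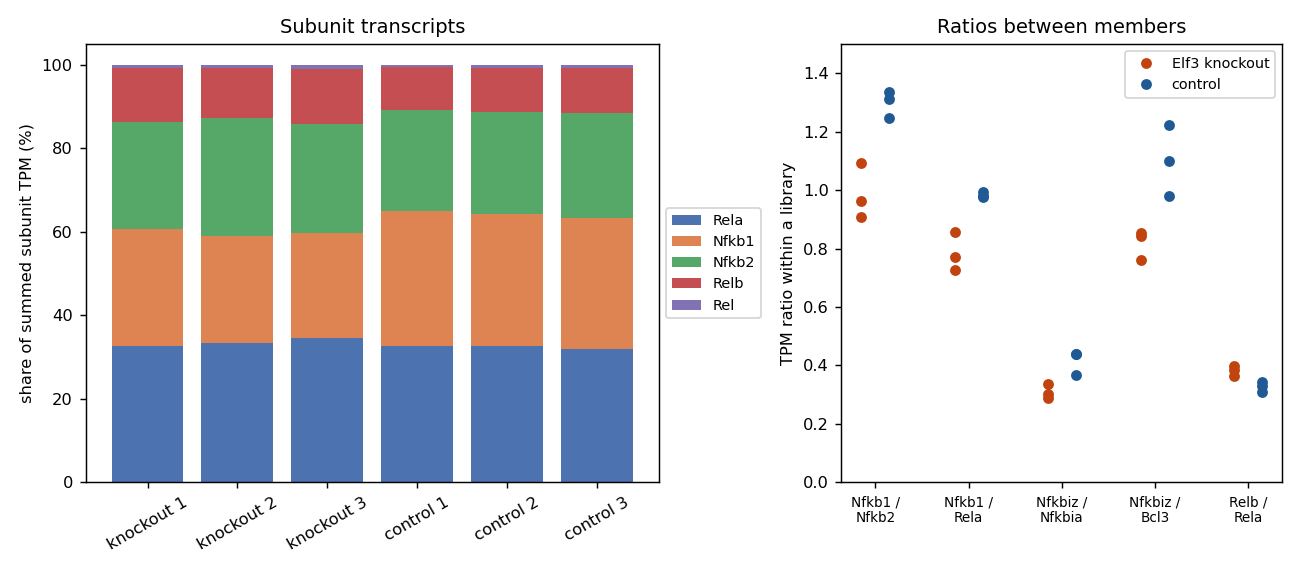
Left, share of each subunit gene in the summed subunit TPM of a library, knockout libraries first. Right, TPM ratios of gene pairs within a library, 1 point a library; Nfkb1 to Rela lies at 0.726 to 0.856 in the knockout and at 0.977 to 0.993 in the controls.

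Libraries of a group did not move all 10 genes alike. Knockout replicate 3 was the highest of the knockout libraries in CPM for 6 genes (Rel, Rela, Relb, Nfkbia, Nfkbie and Tnfaip3) and the lowest for Nfkb1 and Bcl3. Control replicate 3 was the highest control for 7 genes and the lowest for Nfkbiz. The falls of Nfkb1 and Nfkbiz were present whichever library was left out, at log2 fold changes of -0.42 to -0.38 and -0.63 to -0.49.

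Some other genes had a profile over the 6 libraries close to that of a called member, measured as the root mean square difference of centred log2(CPM + 1). Nearest to Nfkb1 were Parp1 (0.0227) and Emp2 (0.0269), and nearest to Rela were Cog7 (0.0196) and Aig1 (0.0198). Nearest to Relb were Lrrc20 (0.0278) and Fen1 (0.0283). Nfkbiz had no neighbour as close, with Dop1b at 0.0327 and Ptp4a1 (ENSMUSG00000026064) at 0.0406.

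Of 22 genes of the signalling steps upstream of the subunits 4 rose, 2 fell and 16 did not pass, with a median log2 fold change of 0.07. Over all tested genes 36.6% were called, 18.3% higher and 18.3% lower, and the counts of this list and of the 2 lists of other inhibitors and of survival and stress targets are not read as more than that background. Map3k7, which encodes the kinase TAK1 that activates the IκB kinase, rose to 149 ± 5.54 CPM in the knockout, against 110.5 ± 5.86 in the controls. Tnfrsf1b, the second TNF receptor, rose to 42.7 ± 1.78 CPM in the knockout, against 28.8 ± 0.312 in the controls. The ubiquitin ligase gene Traf6 rose 1.20-fold. Ikbkg, the regulatory subunit NEMO of the IκB kinase, fell to 67.9 ± 4.04 CPM in the knockout, against 83.8 ± 3.21 in the controls (edgeR adjusted p = 0.000522).

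Other inhibitors of the pathway gave 5 higher, 0 lower and 12 not passing of 17 tested, with a median of 0.08. For the count of 0 lower, DESeq2 and limma-voom also gave 0, and 1 gene was lower at an unadjusted edgeR p under 0.05. Cyld, a deubiquitinase that opposes TNF signalling, rose to 152 ± 10.7 CPM in the knockout, against 104 ± 4.10 in the controls. Tnip1, an A20-binding partner, rose to 115 ± 7.10 CPM in the knockout, against 81.5 ± 6.0 in the controls. Pdlim2, which promotes degradation of nuclear RelA, rose to 23.5 ± 0.657 CPM in the knockout, against 12.7 ± 1.03 in the controls. Tax1bp1, an adaptor of A20, rose 1.17-fold. Summed over this list the TPM was 693 to 771 in the knockout and 637 to 654 in the controls.

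Among inflammatory target genes 11 fell, 5 rose and 7 did not pass of 23 tested, with a median of -0.51. The shares over all tested genes were 18.3% called lower and 18.3% called higher. This list was drawn up with earlier results of these data known, so its count of falls is no independent result. Vcam1, an adhesion molecule gene, fell to 122 ± 8.69 CPM in the knockout, against 316 ± 14.7 in the controls. Ccl20, a chemokine gene, fell to 7.46 ± 2.25 CPM in the knockout, against 28.4 ± 3.54 in the controls. Mmp9, a matrix metalloproteinase gene, rose to 114 ± 10.8 CPM in the knockout, against 17.4 ± 1.18 in the controls. Of 13 survival and stress targets tested, 5 rose and 2 fell, and the median was 0.09. Tnfaip2, a TNF-induced gene, rose 1.89-fold, the early response gene Ier3 1.27-fold and Cflar, the inhibitor of caspase-8, 1.25-fold, while the quinone reductase gene Nqo1 fell 2.56-fold.

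A short list of genes linked to IκBζ in mouse macrophages or keratinocytes shared 6 of its members with the inflammatory targets. Of 6 tested, 3 fell, 0 rose and 3 did not pass, and their median log2 fold change was -1.42, against -0.01 over all tested genes. Among all tested genes 18.3% were called lower and 18.3% higher. The same 3 falls were already counted among the inflammatory targets. DESeq2 and limma-voom also called 0 higher, as did an unadjusted edgeR p under 0.05. The fallen genes were Lcn2, at 30.2 ± 0.932 CPM in the knockout and 144 ± 4.85 in the controls, Ccl20 and Cxcl5, at 1.25 ± 0.901 CPM in the knockout and 9.49 ± 2.17 in the controls. Csf2, Csf3 and Zc3h12a did not pass, at log2 fold changes of -0.92, 0.38 and 0.22. These falls were known when the list was drawn up, so they are no independent evidence about Nfkbiz. S100a8 and S100a9 were at 0 in every library.

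**Figure D4:**
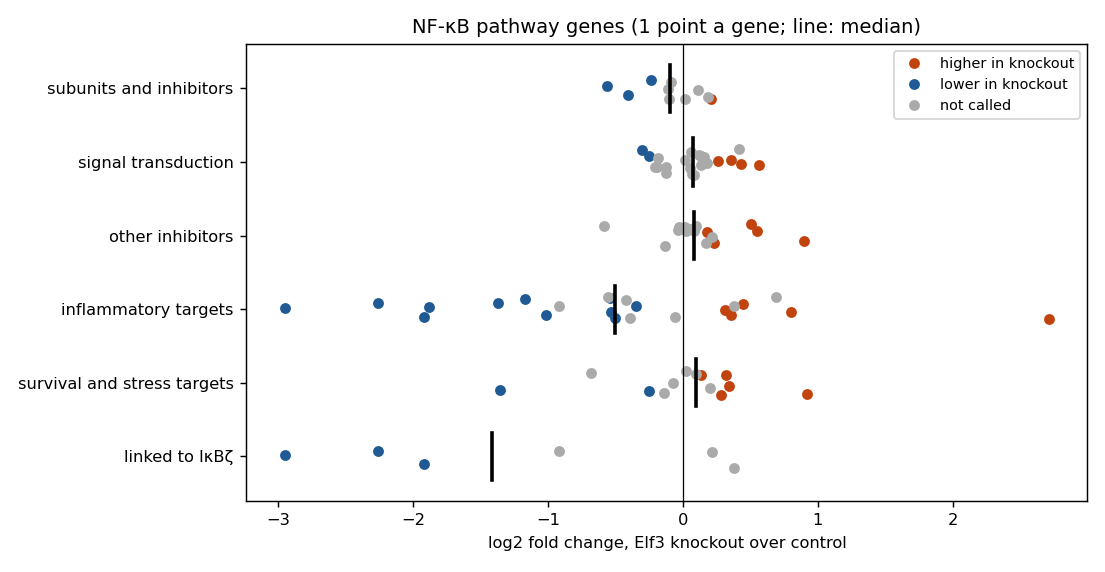
Log2 fold change of knockout over control for every tested gene of the set and of 5 pathway lists, 1 point a gene, coloured by edgeR call, with the median as a line. The inflammatory targets spread from -2.95 (Cxcl5) to 2.72 (Mmp9), while the 10 subunit and inhibitor genes lie between -0.57 and 0.20.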

How the data were processed

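RNA of 6 libraries, 3 knockout and 3 control by sample title, was enriched for mRNA and sequenced, per the labels' protocols. The authors deposited estimated counts, unscaled reads per gene, 93.3% of nonzero values whole within 1e-06. The TPM were deposited by the authors scaled to the same sum in each library. Tools and build named in the submitters' processing notes, without roles, are Salmon, featureCounts and mm10. They name no strand setting, annotation or filter. Counts of all 10 members were whole.

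Counts were rounded, filtered with filterByExpr (13755 of 55487 genes kept), scaled with TMM and compared in edgeR 4.0.16 (R 4.3.3) by its quasi-likelihood test, with no covariate and a threshold of 0.05. Standard errors and 95% intervals come from that test's F value. CPM are TMM-normalised. Members and lists were chosen with earlier results of these data known. Named beyond the members were up to 4 called genes with the smallest p-values of each list, and for each called member the 2 nearest profiles among 10549 candidate genes of at least 5 CPM. Positions are from GENCODE M21. Poisson intervals cover counting error only. Alternatives were RLE factors, library totals, DESeq2 1.42.0, limma-voom (limma 3.58.1), other count filters, limma on log2(TPM + 1) and log2(TPM + 0.1), a threshold of 0.01, a replicate block and leaving out each library. A TPM fold change is on the scale log2(TPM + pseudocount), which understates low genes. Chi-square over degrees of freedom between replicates was 2.03 to 3.67, so none repeats another.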

Additional observations from a re-analysis of the deposited data

How the results depend on the processing

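Over 17 alternatives the falls of Nfkb1 (log2 fold change -0.43 to -0.38) and Nfkbiz (-0.63 to -0.49) kept direction and call, and 2 or 3 members were called lower. The call of Rela was lost on the 3 TPM settings (-0.07, adjusted p = 0.574 to 0.609). Against 1 member called higher, Relb, there were 0 with library totals, with DESeq2, at a threshold of 0.01 and on the 3 TPM settings, and 0 to 2 when 1 library was left out. The cause was not tested. Nfkb2 changed sign with library totals (-0.011) and without knockout replicate 2 or control replicate 1 (lowest -0.018, highest 0.068 over the 6 left out), and Rel without knockout replicate 3 (lowest -0.12, highest 0.23). On TPM fewer of all genes passed, 1421 higher and 1291 lower with log2(TPM + 1), 1412 and 1304 with log2(TPM + 0.1), and 1195 and 980 with log2(TPM + 1) without a filter, against 2516 and 2512 from counts. Of the pathway list genes 11, 11 and 10 were then called higher, against 19. Of 10 places in the TPM order, 5 to 10 held in the controls and 8 to 10 in the knockout when 1 library was left out, the 5 arising without control replicate 3.

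No pairing of the libraries by replicate number was detected: same-numbered deviations from the group means correlated at 0.002, 0.014 and 0.01 across genes. The labels do not say whether same-numbered libraries share a source, and these correlations over 3 replicates cannot exclude it. The replicate block gave 1 member higher and 3 lower, as without it, with 2561 genes higher and 2585 lower. No alternative scaling moved the median of all genes by 0.1 or more. Depth limits Rel most, with 85 to 147 counts.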
